A study of Mus musculus with 49 samples.

Results

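A set of 10 genes of glucose, lactate and pyruvate metabolism was followed in single late 2-cell embryos after loss of the general transcription factor TBP or of the forkhead factor FOXJ3. They were chosen by their symbols in the GENCODE annotation of GRCm38 and make up 10 of the 54838 gene rows of the count tables. They are the glucose transporters Slc2a1 and Slc2a3, the lactate and pyruvate transporter Slc16a1, the glycolytic enzymes Hk1, Hk2, Pfkp and Pgk1, the lactate dehydrogenase subunits Ldha and Ldhb, and Pdha1 of the pyruvate dehydrogenase complex. All 10 were found, had reads in each of the 4 groups of embryos and passed the filter on low counts in both experiments.

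Cleaving mouse embryos take up pyruvate and lactate as their main fuels, and the use of glucose through glycolysis rises later, towards the blastocyst stage. Monocarboxylate carriers bring pyruvate and lactate across the plasma membrane, lactate dehydrogenase interconverts both, and the mitochondrial pyruvate carrier and the pyruvate dehydrogenase complex pass pyruvate on to the tricarboxylic acid cycle. Hexokinase traps glucose as glucose 6-phosphate, which can enter glycolysis or the pentose phosphate pathway, a source of NADPH and of ribose. Many transcripts of such genes are stored in the oocyte, so that a level at the late 2-cell stage can hold maternal and newly made RNA, which these counts cannot tell apart.

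All embryos were F1(C57BL/6JxCBA/H). Their zygotes had received an antibody and, 4 h later, mRNA for mCherry-Trim21, the ligase with which Trim-Away degrades an antibody-bound protein, and the embryos were lysed 48 h after hCG. TBP LOF (loss of function) embryos had a mouse monoclonal antibody to TBP and their CONTROL embryos mouse IgG, while FOXJ3 LOF embryos had a rabbit polyclonal antibody to FOXJ3 and their CONTROL embryos rabbit IgG. CONTROL embryos thus also carried an IgG and the Trim21 mRNA, and no uninjected embryo entered. Trim-Away acts on the protein, so that the transcript counts do not show how far TBP or FOXJ3 was lost. After quality control 47 of the 49 labelled embryos remained, 9 LOF and 9 CONTROL embryos for TBP, and 16 LOF and 13 CONTROL embryos for FOXJ3, the latter in 2 library batches (9 LOF and 7 CONTROL embryos in batch 1, 7 and 6 in batch 2). Each had between 1103569 and 5434808 counted reads of transcript 5' ends. Each library was a whole embryo, so that fewer cells and less RNA per cell cannot be told apart. It is not given which embryos were collected together, so that p-values measure the spread between these embryos.

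TBP binds the TATA box of promoters that have one, a short way upstream of the start, and the stretch upstream of the RefSeq start is shown for 4 of the genes. RefSeq starts were not compared with the measured 5' ends. RefSeq promoters on GRCm38.p6 were available for 9 of the 10 genes, with 11 starts in all, and the windows span bases -40 to -11 before the start. Capitals mark the letters TATAA. Slc16a1, at chr3:104638624-104638653 on the plus strand, is shown because it was the 1 start with a match, Pgk1 because it was, with Slc16a1, called lower under spike-in scaling, and Ldhb and Slc2a1 because they were called higher under TMM scaling:
Slc16a1: cggcccccgcgggtTATAAggcagccgcgc
Pgk1: cttcgctttctgggctcagaggctgggaag
Ldhb: agaaagctaggaggctggagcgccgcggcc
Slc2a1: ccggacgtgctccccaggccccgccccctt
The genes themselves lie, in the GENCODE annotation, on chromosome 3 from 104638668 to 104658462 (Slc16a1, ENSMUSG00000032902.1), X from 106187100 to 106203699 (Pgk1, ENSMUSG00000062070.12), 6 from 142490249 to 142507957 (Ldhb, ENSMUSG00000030246.11) and 4 from 119108711 to 119137983 (Slc2a1, ENSMUSG00000028645.11). The Pgk1 window lies at chrX:106187060-106187089 on the plus strand, the Ldhb window at chr6:142507968-142507997 on the minus strand and the Slc2a1 window at chr4:119108705-119108734 on the plus strand, where most of its bases lie inside the gene as GENCODE has it. TATAA and TATAT, which overlap where TATATAA occurs, were searched on both strands. On the gene's strand TATAA was in 3.793% and either motif in 5.09% of the 32851 promoters of the table, and on either strand 5.896% held a match. Over the promoter from 250 bases before to 50 bases after the start, the 4 genes were 73.7% (Slc16a1), 66.7% (Pgk1), 57.3% (Ldhb) and 65.3% (Slc2a1) G or C, where the 11 starts ranged from 51.3 to 73.7% and the median of all promoters was 52.7%. A match of letters is a description of the sequence and not a binding site.

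Ldhb was the most abundant of the 10 transcripts in all 4 groups, and stood above the next gene in each embryo of all groups. Levels are given here as RPM, reads scaled to the gene and transposable element reads of the embryo, divided by the exon length in kb. As only 5' ends were counted, this division can understate long transcripts, and the order without it is given below. Median Ldhb levels were 106 in TBP CONTROL, 146 in TBP LOF, 138 in FOXJ3 CONTROL and 93.6 in FOXJ3 LOF embryos. Pgk1, Pdha1, Slc16a1 and Ldha followed with medians from 9.83 to 16.6 over the 22 CONTROL embryos, and neighbours in this order did not separate. Pgk1 exceeded Pdha1 in 15, Pdha1 exceeded Slc16a1 in 13 and Slc16a1 exceeded Ldha in 11 of the 22. The order differed between the CONTROL groups: for TBP, Ldha was first of these 4 at 10.6 and Pdha1 last at 8.11, and for FOXJ3, Pgk1 was first and Ldha last at 9.75. Per kb, Slc2a3 and Slc2a1 had medians of 1.79 and 1.41 and did not separate either. Slc2a3 was higher in 13 of 22 embryos, and their medians per kb stood in opposite order in the 2 CONTROL groups (1.94 and 1.00 for TBP, 1.23 and 1.53 for FOXJ3). Hk2, Pfkp and Hk1 were lowest, at 0.267, 0.202 and 0.194, with single reads deciding the order. Undivided by length, Ldhb was again first in each group and Hk1, Hk2 and Pfkp were the last 3. The undivided median of Slc2a3 was above that of Slc2a1 in all 4 groups. Their opposite order in the CONTROL groups was thus seen only after division by length.

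**Figure D1:**
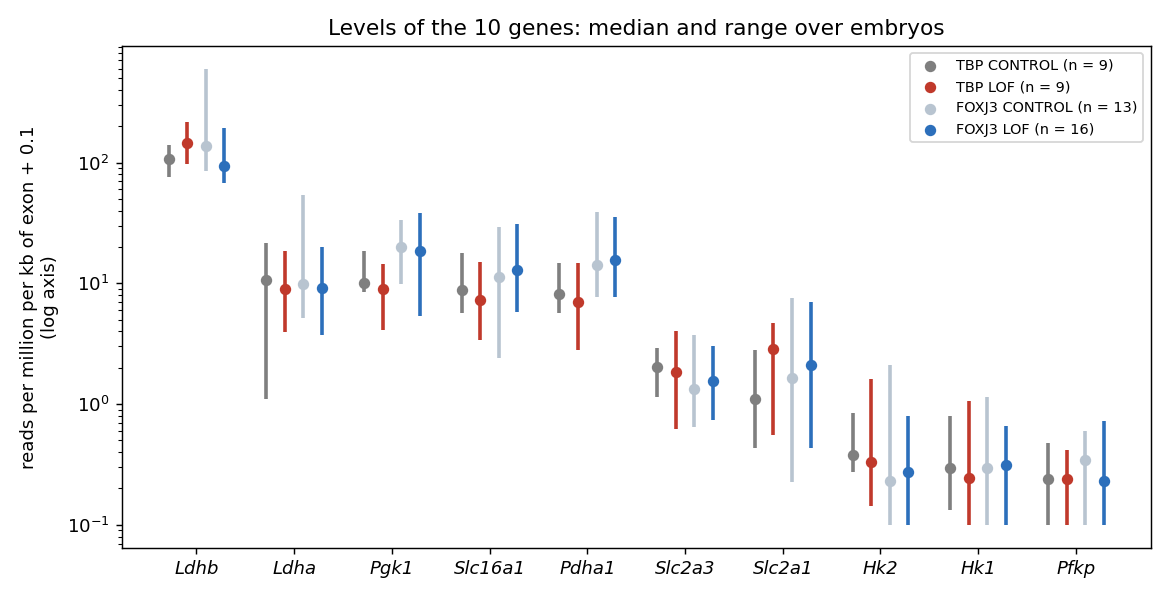
RPM per kb of exon, plus 0.1, on a log axis for the 10 genes in the 4 groups, with points for medians and lines from the lowest to the highest embryo. Ldhb stands alone at medians from 93.6 to 146, Pgk1, Ldha, Slc16a1 and Pdha1 overlap, and Hk1, Hk2 and Pfkp lie near the bottom.

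Heart-type Ldhb and muscle-type Ldha encode the subunits of the tetrameric lactate dehydrogenase. Of their joint reads, Ldhb took a median of 83.2% in TBP CONTROL (range 66.9 to 98.4), 88.7% in TBP LOF (80.5 to 95.8), 89.4% in FOXJ3 CONTROL (73.0 to 94.1) and 82.6% in FOXJ3 LOF embryos (76.5 to 91.6). Of the reads of all 10 genes, Ldhb took medians of 51.8, 59.6, 49.5 and 41.4% in the same order. The reads of Hk1, Hk2 and Pfkp were so few that no read was counted for Hk1 in 2 of 9 TBP LOF embryos, for Pfkp in 3 of 9 TBP CONTROL embryos and for Hk2 in 6 of 16 FOXJ3 LOF embryos. A count of 0 in 1 embryo sets only an upper limit at this depth.

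In TBP LOF embryos, 2 of the 10 genes were lower than in CONTROL embryos, Slc16a1 and Pgk1, and 0 were higher (edgeR quasi-likelihood test with scaling by the ERCC spike-ins, adjusted over all genes and transposable element families, threshold 0.05). At an unadjusted p below this threshold stood 4 of the 10, all with a negative fold change, beside 39.1% of all genes. In this comparison 29.8% of all 18447 genes tested were lower and 1.4% higher, with a median over them of -0.70 on the log2 scale. The 10 genes had a median of -0.64 and 9 values below 0, beside 73.0% of all genes below 0. The 2 of 10 called lower are near the share of all genes. ERCC spike-ins are added in a fixed amount, so that this scaling lets a change in total RNA show. Scaling by TMM, which centres the bulk of genes, gave a median over all of them of 0.13, and under it none of the 10 genes was lower and 2 were higher, Slc2a1 and Ldhb, with 12.9% of all genes lower and 13.2% higher. Both scalings are therefore given.

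Slc16a1 encodes MCT1, which carries lactate, pyruvate and protons across the plasma membrane. Its ERCC-normalised counts, reads divided by the size factor of the embryo, ranged from 43.8 over a median of 84.0 to 203 in CONTROL and from 22.2 over 36.5 to 91.9 in LOF embryos. The groups overlapped: the CONTROL median was above 8 of 9 LOF embryos, and 5 lay below every CONTROL embryo. The mean was 95.3 ± 48.8 (SD, n = 9) in CONTROL and 49.1 ± 27.4 (SD, n = 9) in LOF embryos. On the log2 scale the fold change was -0.97 with a standard error of 0.34 (adjusted p = 0.0223 by edgeR), a 1.96-fold lower level. Among all genes tested this value was at percentile 41.8, counted from the most negative. Without CONTROL embryo 8, which had the count of 203, it was -0.75 (adjusted p = 0.0938 by edgeR), and under TMM the fold change was 0.0016 (adjusted p = 0.998 by edgeR).

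Pgk1 encodes the phosphoglycerate kinase of the ATP-forming part of glycolysis and lies on the X chromosome. Its ERCC-normalised counts ranged from 35.4 over a median of 56.3 to 109 in CONTROL and from 8.45 over 33.0 to 73.0 in LOF embryos. The CONTROL median exceeded 8 of 9 LOF embryos, and 6 LOF embryos lay below every CONTROL embryo. LOF embryos differed by -0.92 on the log2 scale, with a standard error of 0.35 (adjusted p = 0.0402 by edgeR). This call was lost when any 1 of 8 embryos was left out, LOF embryos 1, 2, 7, 10 and 11 and CONTROL embryos 3, 6 and 8, with values from -0.93 to -0.78 and an adjusted p of up to 0.108 by edgeR, and also at -0.77 in the fit with a replicate block, which held only the 14 embryos with a same-numbered partner, so that the part of the block was not tested. Under TMM the value was -0.10 (adjusted p = 0.815 by edgeR). Pgk1 has near-identical processed copies, of which Pgk1-rs7 had 98 reads in all embryos beside 3643 for Pgk1, so that its counts can hold a few reads of these copies.

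**Figure D2:**
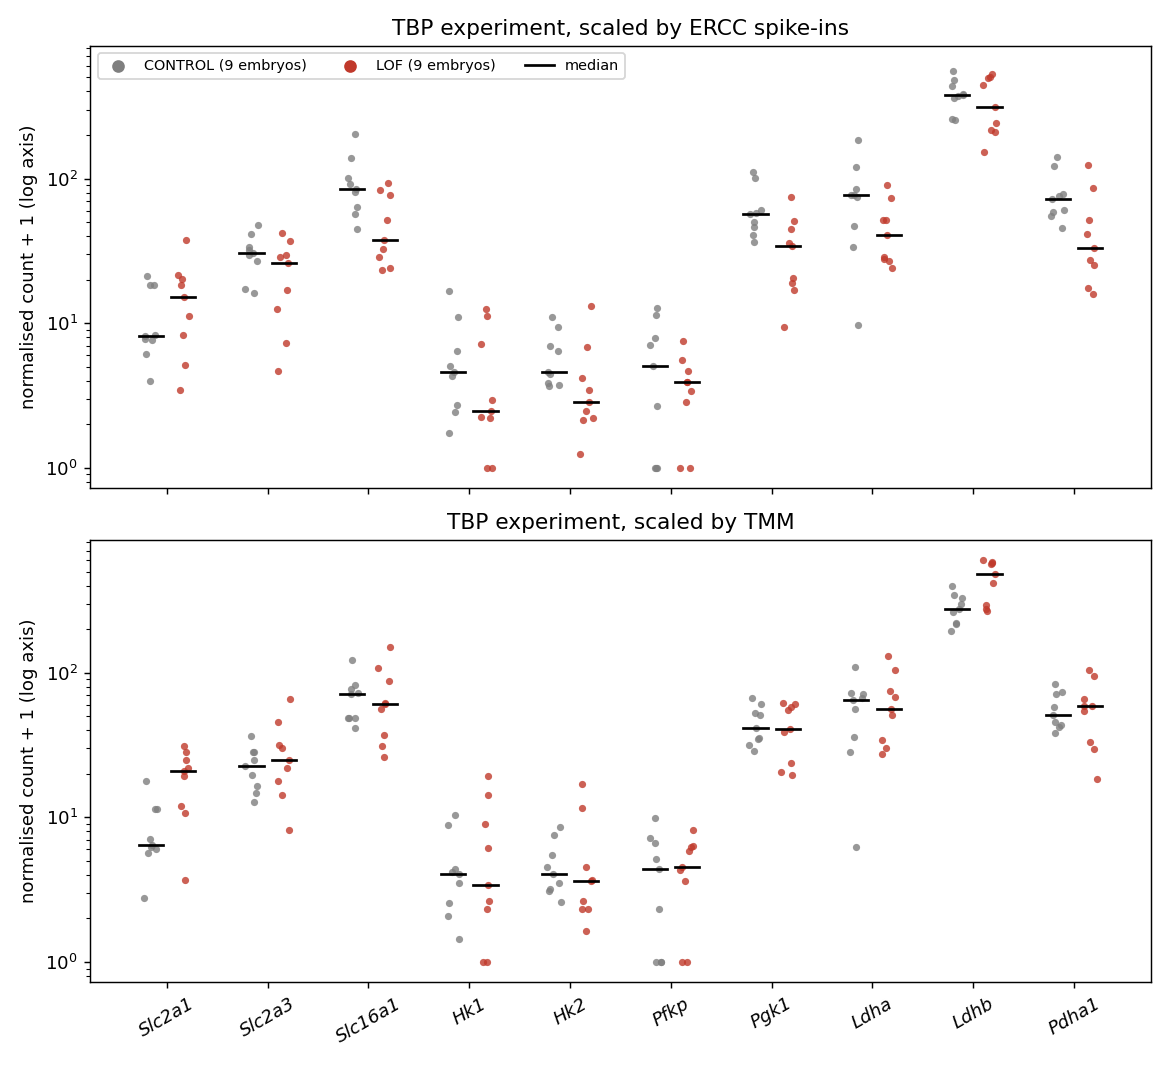
Normalised counts plus 1 (log axis) of the 10 genes in each of the 9 CONTROL (grey) and 9 LOF (red) embryos of the TBP experiment, scaled by ERCC spike-ins (top) or by TMM (bottom), with bars at the medians. Slc16a1 and Pgk1 sit lower in LOF embryos in the upper panel and overlap more in the lower one, while Slc2a1 and Ldhb sit higher in LOF embryos in the lower panel.

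Ldha and Pdha1 had fold changes close to those of Slc16a1 and Pgk1 but did not pass the test. ERCC-normalised counts of Ldha ranged from 8.68 over 75.9 to 183 in CONTROL and from 23.2 over 39.7 to 89.6 in LOF embryos, all 9 of which lay within the CONTROL range. The log2 fold change of Ldha was -0.79 with a standard error of 0.36 (adjusted p = 0.0910 by edgeR). Pdha1, the E1 alpha subunit through which pyruvate dehydrogenase is switched by phosphorylation, ranged from 44.7 over 71.2 to 139 in CONTROL and from 14.9 over 32.2 to 124 in LOF embryos, of which 6 lay below every CONTROL embryo. Its log2 fold change was -0.78 with a standard error of 0.35 (adjusted p = 0.0867 by edgeR). Under TMM these values were 0.17 for Ldha and 0.014 for Pdha1, so that their sign followed the scaling. Left out singly, LOF embryo 1 or CONTROL embryo 6 (for Ldha) and LOF embryo 6 or LOF embryo 8 (for Pdha1) brought the gene past the threshold, at log2 fold changes of -0.97, -0.94, -0.94 and -1.11.

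Ldhb did not pass under spike-in scaling and rose under TMM. ERCC-normalised counts ranged from 254 over 376 to 550 in CONTROL and from 152 over 313 to 526 in LOF embryos, of which 4 lay below every CONTROL embryo and 5 within their range. This gave a log2 fold change of -0.16 with a standard error of 0.29 and a 95% confidence interval from -0.74 to 0.42 (adjusted p = 0.736 by edgeR). TMM-normalised counts ranged from 194 over 273 to 399 in CONTROL and from 265 over 484 to 599 in LOF embryos, of which 6 lay above every CONTROL embryo. On that scale the log2 fold change was 0.67 with a standard error of 0.22 (adjusted p = 0.0192 by edgeR). Under ERCC scaling the value of Ldhb stood at percentile 67.7 of all genes, counted from the most negative.

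Slc2a1 encodes GLUT1 and Slc2a3 the high-affinity transporter GLUT3. Under ERCC scaling Slc2a1 alone among the 10 genes had a positive value, and it did not pass. Its ERCC-normalised counts ranged from 2.97 over 7.13 to 20.3 in CONTROL and from 2.46 over 14.1 to 36.5 in LOF embryos, 7 of which lay above the CONTROL median. LOF embryos differed by 0.52 on the log2 scale, with a 95% confidence interval from -0.49 to 1.52 (adjusted p = 0.489 by edgeR). With 1 embryo left out this value ranged from 0.24 to 0.73. Under TMM, CONTROL embryos ranged from 1.76 over 5.45 to 17.0 and LOF embryos from 2.69 over 19.9 to 30.3, with 6 of 9 LOF embryos above every CONTROL embryo. The log2 fold change was then 1.31 with a standard error of 0.44 (adjusted p = 0.0254 by edgeR). The raw reads behind these values were few, with medians of 5 in CONTROL and 16 in LOF embryos, and 85 reads of the antisense gene Gm12868 stood beside 707 of Slc2a1 over all embryos. Slc2a3 ranged from 15.2 over 29.5 to 46.6 in CONTROL and from 3.69 over 25.3 to 41.0 in LOF embryos on the ERCC scale. Its log2 fold change was -0.46 under ERCC scaling (adjusted p = 0.421 by edgeR) and 0.35 under TMM (adjusted p = 0.474 by edgeR).

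The hexokinases, which phosphorylate glucose, and the phosphofructokinase Pfkp, which commits it to glycolysis, were scarce and had wide intervals. Median raw counts were 3 for Hk1, 4 for Hk2 and 3 for Pfkp in CONTROL embryos and 2, 2 and 3 in LOF embryos. Under ERCC scaling the log2 fold changes were -0.36 (95% confidence interval -1.80 to 1.09) for Hk1, -0.54 (-1.89 to 0.81) for Hk2 and -0.74 (-2.25 to 0.77) for Pfkp, with adjusted p-values of 0.769, 0.606 and 0.512 by edgeR. Without LOF embryo 5, which had the highest count of Hk2, the value of Hk2 was -1.17. Under TMM the values were 0.67, 0.32 and 0.065, of the opposite sign, and did not pass. All 3 intervals reached into both directions, so that no difference was detected. The parts of depth and of the spread between embryos in this were not tested. Hk1 shares its locus with the antisense gene Hk1os (68 reads against 220) and Pfkp with Pitrm1 on the other strand (1087 against 213), and the use of strand in counting is not stated.

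**Figure D3:**
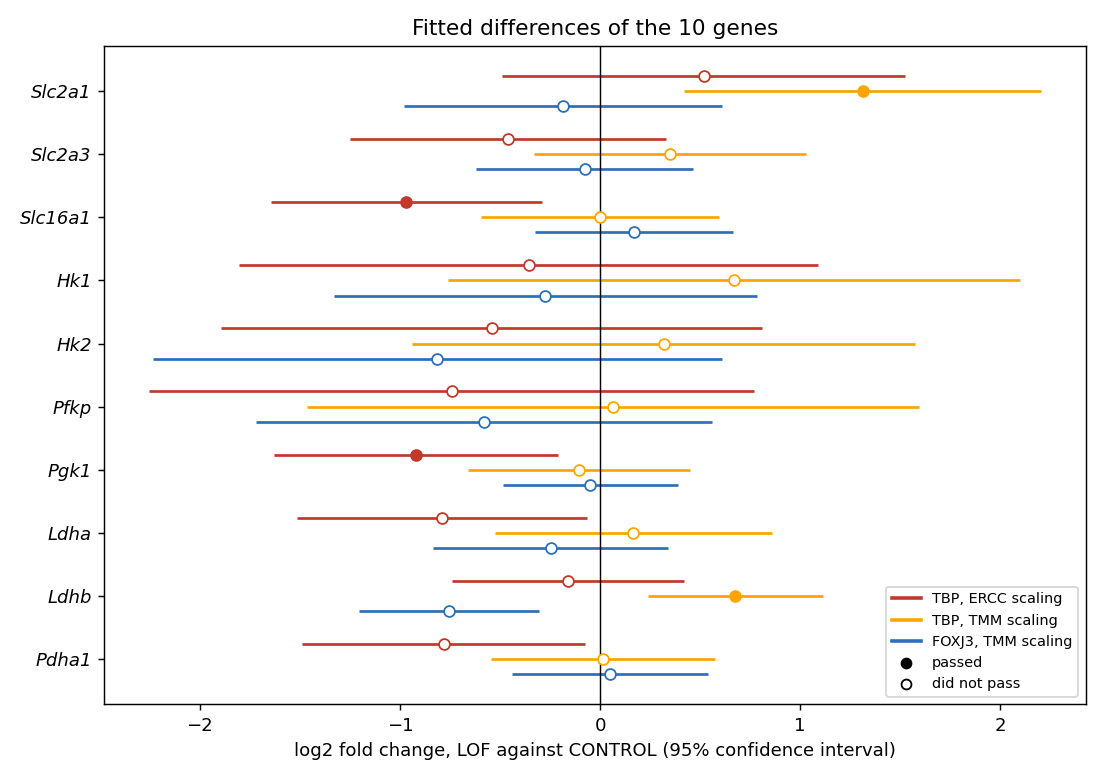
Log2 fold change of LOF against CONTROL with its 95% confidence interval for the 10 genes, for TBP with ERCC scaling (red), TBP with TMM scaling (orange) and FOXJ3 with TMM scaling (blue), filled where the adjusted p was below 0.05. Slc16a1 (-0.97) and Pgk1 (-0.92) pass with ERCC scaling, Slc2a1 (1.31) and Ldhb (0.67) with TMM, and none passes for FOXJ3.

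The share of ERCC reads and some of the stage markers also differed between the groups of this comparison. ERCC reads took a median of 2.82% of reads in CONTROL and 4.38% in LOF embryos, and mitochondrial reads 5.76 and 6.63%. Of the 7 late 2-cell markers, 2 were higher and 0 lower under ERCC scaling, beside 1.4% higher and 29.8% lower of all genes. The median log2 fold change of the markers was 0.52, and 2 of the 7 had a negative value, the lowest at -1.24. The paper reports no effect of TBP loss on Zscan4a-f or Zfp352. On the ERCC scale, LOF embryos lay on both sides of the CONTROL median for Zscan4c (6 of 9 below), Zscan4d (6), Zscan4f (5) and Zfp352 (3). Summed ERCC-normalised counts of the 7 markers ranged from 224 to 1257 in CONTROL and from 484 to 2291 in LOF embryos, all 7 being detected in both groups. The sum of the 6 oocyte markers ranged from 1650 to 5354 and from 1799 to 5847, with Zp3 lower. Of 11 cumulus cell markers, 5 were tested and 2 were lower, 6 had a read in CONTROL and 7 in LOF embryos, their sums ranged from 37.9 to 140 and from 12.3 to 46.7, and Fshr, Has2, Hsd3b1 and Ptx3 were at 0 in both groups and Lhcgr in CONTROL embryos. Under TMM the marker calls differed, with 4 late 2-cell markers higher, 1 oocyte marker lower and 4 higher, and 0 cumulus markers lower and 1 higher by edgeR. The medians of the TMM-normalised sums were 2128 and 4384 for the oocyte, 329.8 and 1781 for the late 2-cell and 37.9 and 33.0 for the cumulus markers in CONTROL and LOF embryos. On the ERCC scale, sums of the 6 blastocyst markers lay between 0 and 10.1 in CONTROL and between 0 and 21.2 in LOF embryos, with Elf5 at 0. The part of RNA content, stage or these markers in the differences above was not tested.

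Among genes of the surrounding pathway a larger share was called lower than among the 10 genes, a difference that was not tested. Of 82 other genes of glucose, lactate and pyruvate metabolism, 71 could be tested, and of these 31 (43.7%) were lower and 3 higher in TBP LOF embryos under ERCC scaling, with a median log2 fold change of -0.89, beside 29.8% lower and 1.4% higher of all genes. Under TMM 13 (18.3%) were lower and 7 (9.86%) higher, with a median of -0.096, beside 12.9% and 13.2% of all genes. All 13 genes lower under TMM were also lower under ERCC scaling, and the 3 higher under ERCC scaling, G6pdx, Pgls and Slc16a3, were also higher under TMM. Both scalings use the same counts and differ mainly by a shift of all genes (medians of -0.70 and 0.13). This overlap thus follows largely from the scaling and is no separate evidence. More was called among well counted genes. Under a stricter filter (filterByExpr of edgeR) 52.7% of 7699 genes were lower, as were 2 of 7 tested members (28.6%) and 29 of 42 tested pathway genes (69.0%). In 10 of the 71 genes every LOF embryo lay below every CONTROL embryo on the ERCC scale, against 6.96% of all genes (0.0108% with every LOF embryo above), while each of the 10 member genes overlapped.

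**Figure D4:**
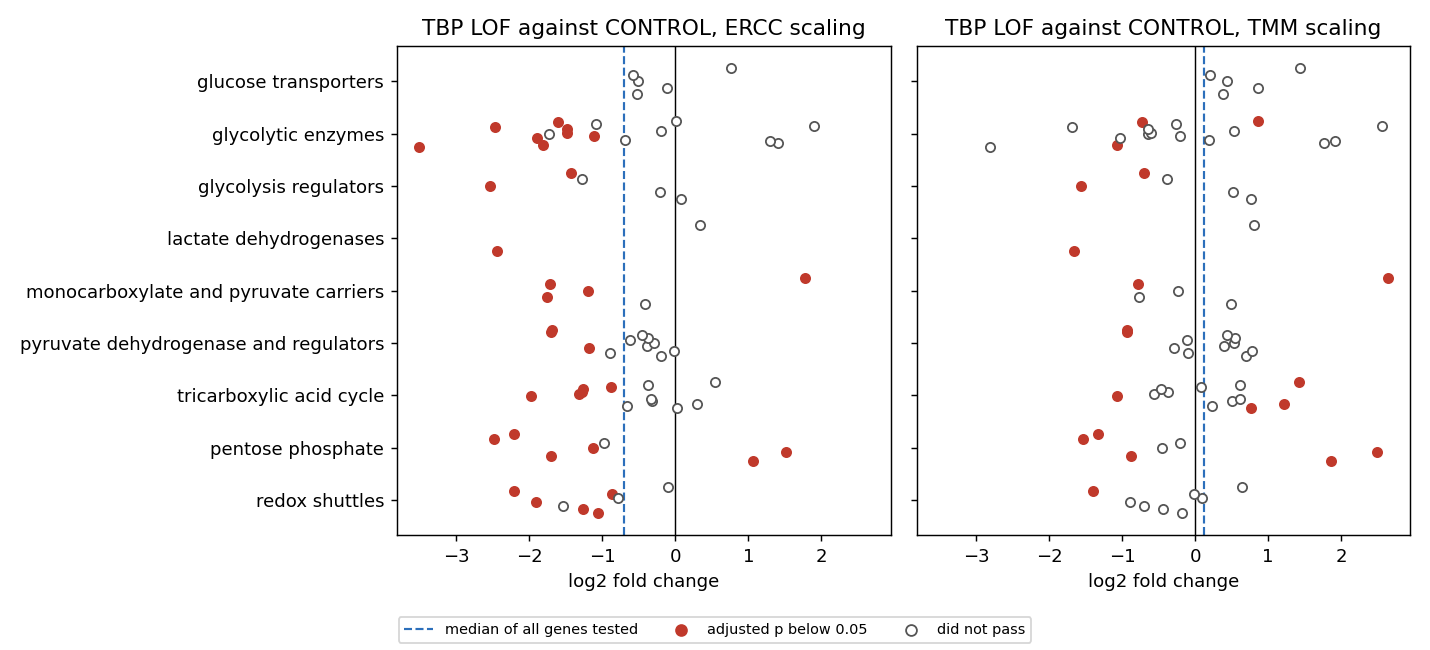
Log2 fold change of TBP LOF against CONTROL for the 71 tested genes of the surrounding pathway in 9 sublists, with ERCC scaling (left) and TMM scaling (right), filled where the adjusted p was below 0.05, and the dashed line at the median of all genes. On the left 31 genes are lower and 3 higher, on the right 13 and 7.

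The pentose phosphate pathway held changes in opposite directions. Taldo1, the transaldolase of its non-oxidative branch, ranged from 148 over 222 to 372 ERCC-normalised counts in CONTROL and from 13.2 over 39.7 to 86.9 in LOF embryos, without overlap. LOF embryos were lower by a log2 fold change of -2.49 with a standard error of 0.32 (adjusted p = 2.22e-08 by edgeR), and -1.54 under TMM. G6pdx, the X-linked enzyme that opens the pathway and forms NADPH, ranged from 30.7 over 48.8 to 82.4 in CONTROL and from 39.8 over 111 to 170 in LOF embryos. This was a log2 fold change of 1.06 with a standard error of 0.32 (adjusted p = 0.00711 by edgeR), and 1.86 under TMM. In all, 4 of 7 genes of the list were lower and 2 higher under ERCC scaling, and 3 lower and 2 higher under TMM. Tkt, Pgd and Pgls are named after their values were seen. The transketolase gene Tkt had a log2 fold change of -2.22 under ERCC scaling and -1.33 under TMM. Pgd, the other NADPH-forming enzyme, had -1.70 and -0.87, and Pgls, the lactonase between G6pdx and Pgd, 1.52 and 2.49 on the same scalings, with at most 21.8 ERCC-normalised counts.

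Both subunits of the mitochondrial pyruvate carrier were lower under ERCC scaling. Mpc2 ranged from 214 over 332 to 531 ERCC-normalised counts in CONTROL and from 62.4 over 110 to 192 in LOF embryos, without overlap. Its log2 fold change was -1.72 with a standard error of 0.29 (adjusted p = 4.37e-06 by edgeR) and -0.78 under TMM, where it also passed. Its partner Mpc1, named after its values were seen, had -1.19 under ERCC scaling and -0.23 under TMM, where it did not pass. Of the list of monocarboxylate and pyruvate carriers and their ancillary glycoproteins, without Slc16a1, 3 of 5 tested were lower and 1 higher under ERCC scaling, and 1 lower and 1 higher under TMM. The lower ones were Mpc1, Mpc2 and Emb, an ancillary glycoprotein and no carrier, named after its values were seen (-1.76 under ERCC scaling and -0.78 under TMM, where it did not pass). The higher one was Slc16a3, which encodes the lactate exporter MCT4, with counts from 0 over 2.69 to 13.3 in CONTROL and from 1.84 over 6.56 to 33.0 in LOF embryos. Its log2 fold change was 1.77 with a standard error of 0.64 (adjusted p = 0.0286 by edgeR) and 2.64 under TMM, and the ERCC call was lost without any 1 of 5 embryos (LOF 1, 5 or 9, CONTROL 6 or 8), with values from 1.45 to 1.68. For pyruvate dehydrogenase and its regulators 3 of 11 were lower and 0 higher by edgeR, and 2 lower and 0 higher under TMM. Pdp2, a phosphatase that activates the complex, ranged from 139 over 182 to 276 in CONTROL and from 5.13 over 54.5 to 133 in LOF embryos, without overlap, with a log2 fold change of -1.70 (adjusted p = 0.000124 by edgeR), and -0.93 under TMM, where it also passed.

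Among the glycolytic enzymes other than the members, 8 of 16 were lower and 0 higher under ERCC scaling by edgeR, and 2 lower and 1 higher under TMM. Pkm, the pyruvate kinase of embryos and most tissues, ranged from 219 over 368 to 620 ERCC-normalised counts in CONTROL and from 74.7 over 119 to 261 in LOF embryos, which overlapped. This was a log2 fold change of -1.61 with a standard error of 0.30 (adjusted p = 2.17e-05 by edgeR), and -0.73 under TMM, where it also passed. The testis isoform Pgk2 had a median of 0 in both groups and a log2 fold change of 1.90 that did not pass (adjusted p = 0.205 by edgeR), nor did 2.56 under TMM. Of 5 regulators of glycolysis 2 were lower under either scaling. Pfkfb3, which makes the activator fructose 2,6-bisphosphate, ranged from 25.7 over 47.1 to 107 in CONTROL and from 3.28 over 8.04 to 21.4 in LOF embryos, without overlap. On the log2 scale this was -2.54 with a standard error of 0.40 (adjusted p = 9.88e-07 by edgeR), and -1.57 under TMM. Pfkfb1 was near 0 in both groups, with a log2 fold change of 0.080 (adjusted p = 0.970 by edgeR) and 0.77 under TMM, neither of which passed.

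Each sublist holds few genes, and its counts are a description beside the 29.8% of all genes that were lower under ERCC scaling. In the remaining lists, 5 of 12 genes of the tricarboxylic acid cycle and 5 of 8 genes of the redox shuttles, which move NADH equivalents into mitochondria, were lower and 0 higher by edgeR under ERCC scaling. Under TMM 1 of 12 was lower and 3 higher in the cycle, and 1 of 8 lower in the shuttles. Idh3b, a subunit of the NAD-dependent isocitrate dehydrogenase, ranged from 45.1 over 54.2 to 160 in CONTROL and from 2.30 over 20.6 to 44.7 in LOF embryos, with a log2 fold change of -1.98 (adjusted p = 0.000121 by edgeR) and -1.08 under TMM. Suclg2, of succinyl-CoA synthetase, had 0.54 under ERCC scaling, which did not pass, and 1.43 under TMM, which did. Gpd2 of the glycerol phosphate shuttle ranged from 9.98 over 46.9 to 84.6 in CONTROL embryos and had a median of 11.3 in LOF embryos, which overlapped, with a log2 fold change of -1.91 (adjusted p = 0.000104 by edgeR), and -0.89 under TMM, which did not pass. Ldhc, the lactate dehydrogenase subunit of germ cells, ranged from 2.97 over 23.3 to 63.1 and from 0 over 4.30 to 15.6, with a log2 fold change of -2.44 (adjusted p = 0.000395 by edgeR), and -1.66 under TMM, where it also passed. Ldhd, which acts on D-lactate, had log2 fold changes of 0.34 under ERCC scaling and 0.80 under TMM that did not pass. None of 5 tested glucose transporters passed by edgeR under either scaling, with 0 at an unadjusted p below 0.05 under ERCC scaling and 1 under TMM. Slc2a8 and Slc2a9, with the smallest p in either direction, had -0.58 and 0.76 under ERCC scaling and 0.21 and 1.44 under TMM.

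FOXJ3 loss was compared with rabbit IgG in 16 and 13 embryos by edgeR with TMM scaling and library batch as a term. None of the 10 genes passed, with 0.0107% of all 18626 genes lower and 0% higher, and DESeq2 likewise called 0 of the 10. At an unadjusted p below 0.05 stood 1 of the 10 genes, beside 5.69% of all genes. The 10 log2 fold changes lay between -0.81 and 0.17 with a median of -0.22, and 8 were below 0. Of all genes, 52.9% were below 0, with a median of -0.027. Under spike-in scaling 5 of the 10 were below 0 and their median was -0.0025. Of all genes, 35.4% were then below 0, with a median of 0.15.

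Ldhb had the smallest p of the 10. Its TMM-normalised counts ranged from 306 over 390 to 2214 in CONTROL and from 224 over 305 to 526 in LOF embryos, with 8 of 16 LOF embryos below every CONTROL embryo and 13 below the CONTROL median. LOF embryos differed by -0.75 on the log2 scale, with a standard error of 0.22 (unadjusted p = 0.00162 and adjusted p = 0.541 by edgeR). In batch 1, CONTROL embryos ranged from 333 to 2214 and LOF embryos from 224 to 526, a log2 fold change of -1.11. In batch 2 the ranges were 306 to 564 and 239 to 413, a log2 fold change of -0.34, so that the sign held in both batches and the size did not. CONTROL embryo 3 of batch 1 had the count of 2214, with the next embryo at 994, and without it the fold change was -0.41 (adjusted p = 0.823 by edgeR).

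**Figure D5:**
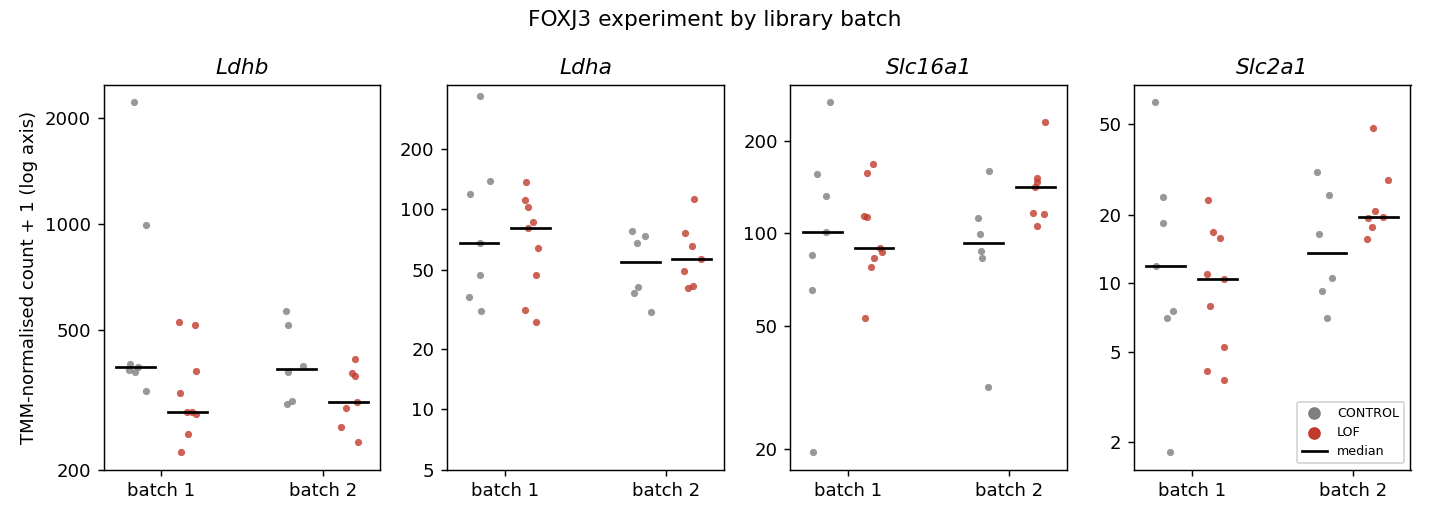
TMM-normalised counts plus 1 (log axes) of Ldhb, Ldha, Slc16a1 and Slc2a1 in CONTROL (grey) and LOF (red) embryos of the FOXJ3 experiment, by library batch, with bars at the medians. The median of Ldhb is lower in LOF embryos in both batches, with CONTROL embryos at 2214 and 994 in batch 1, while medians of Slc16a1 and Slc2a1 are higher in LOF embryos in batch 2 and lower in batch 1.

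Slc16a1 had fold changes of opposite sign in the 2 batches, a difference that was not tested. Its TMM-normalised counts ranged from 18.5 over 99.7 to 265 in CONTROL and from 52.2 over 88.7 to 167 in LOF embryos of batch 1, and from 30.6 over 92.4 to 158 and from 104 over 140 to 228 in batch 2. All 7 LOF embryos of batch 2 lay above the CONTROL median of that batch. The log2 fold changes were -0.19 in batch 1 and 0.59 in batch 2 (adjusted p = 0.920 and 0.916 by edgeR), and 0.17 with both (95% confidence interval -0.33 to 0.66). Slc2a1 followed the same pattern, with -0.85 in batch 1, 0.57 in batch 2 and -0.19 with both. Ldha had -0.62 in batch 1, 0.22 in batch 2 and -0.25 with both, and 0.13 without CONTROL embryo 2 of batch 1, which had 367 normalised counts. Pgk1 ranged from 43.7 over 85.3 to 145 in CONTROL and from 27.4 over 86.6 to 144 in LOF embryos, with a log2 fold change of -0.050 (95% confidence interval -0.49 to 0.39). Pdha1 ranged from 56.4 over 105 to 263 and from 69.2 over 120 to 222, with 0.049 (-0.44 to 0.54). Slc2a3 had -0.076 (-0.62 to 0.47), and Hk1, Hk2 and Pfkp had -0.27, -0.81 and -0.58 with 95% confidence intervals from -1.33 to 0.79, from -2.23 to 0.61 and from -1.72 to 0.56. With 1 embryo left out, Hk1 ranged from -0.44 to -0.025, Hk2 from -1.15 to -0.44 and Pfkp from -0.86 to -0.36. Pfkp had -1.10 in batch 1 and -0.0067 in batch 2.

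Of 70 other pathway genes tested for FOXJ3, 0 passed by edgeR and 2 had an unadjusted p below 0.05, beside 5.69% of all genes. The 3 with the smallest p were Eno3, Gpi1 and Pfkfb3. Eno3, the muscle enolase, had at most 5 reads in an embryo and none in 12 of 13 CONTROL embryos. Gpi1, which turns glucose 6-phosphate into fructose 6-phosphate, ranged from 19.7 over 33.8 to 79.3 normalised counts in CONTROL and from 30.9 over 46.6 to 71.0 in LOF embryos, with a log2 fold change of 0.42 (adjusted p = 0.861 by edgeR). Pfkfb3 ranged from 11.9 over 42.6 to 78.6 and from 13.7 over 53.5 to 123, with 0.46 (adjusted p = 0.883 by edgeR). The 7 late 2-cell markers all had negative values in this comparison, with a median of -0.71 and 0 calls by edgeR, and 3 had an unadjusted p below 0.05. In batch 1 alone their median was -1.29, with 7 of 7 below 0 and 4 at an unadjusted p below 0.05. Of all 19791 genes tested there, 54.7% were below 0 and 1631 had an unadjusted p below 0.05. In batch 2 alone the median of the markers was -0.021, with 4 of 7 below 0 and 0 at an unadjusted p below 0.05. Of all 18029 genes tested there, 48.4% were below 0 and 983 had an unadjusted p below 0.05. The part of these markers in the Ldhb values was not tested.

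Whether the effects of TBP and FOXJ3 loss differed was tested in 1 fit of all 47 embryos with ERCC scaling. The difference of both log2 fold changes was -1.36 with a standard error of 0.47 for Slc16a1 (adjusted p = 0.0214 by edgeR), -1.10 with 0.43 for Pgk1 (adjusted p = 0.0448 by edgeR) and -1.12 with 0.45 for Pdha1 (adjusted p = 0.0478 by edgeR). These 3 genes thus had a more negative fold change after TBP loss, while 28.1% of all 18759 genes did so, 0.97% had a more positive one, and over all genes the median difference was -0.90. The median over the 10 genes was -0.44. Under TMM, 10.9% of genes had a more negative and 10.5% a more positive change. The 3 genes were then at -0.19, -0.048 and -0.049, and Ldhb alone among the 10 passed, with 1.39 and a standard error of 0.33 (adjusted p = 0.00195 by edgeR). The FOXJ3 side of this value includes CONTROL embryo 3 of batch 1, with 2214 counts of Ldhb. Without this embryo the FOXJ3 fold change of Ldhb went from -0.75 to -0.41. The joint fit was not repeated without single embryos. As the TBP and FOXJ3 embryos differed in the species of the IgG and in their libraries, the comparison rests on the change within each experiment. Of the 70 other pathway genes tested, 28 had a more negative and 1 a more positive change after TBP loss under ERCC scaling, and 8 and 4 under TMM.

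Ratios of 2 genes in the same embryo do not depend on the scaling. The log2 ratio of Ldha to Ldhb reads ranged from -5.85 over -2.30 to -1.02 in TBP CONTROL and from -4.46 over -2.97 to -2.04 in TBP LOF embryos, and the means differed by -0.33 (exact two-sided permutation test, p = 0.554, adjusted over the 6 ratio tests 0.884). CONTROL embryo 6 had the ratio of -5.85, and without it the difference was -0.73 (exact permutation test, adjusted p = 0.143), the lowest of the values with 1 embryo left out, which reached -0.13. In FOXJ3 embryos it ranged from -4.00 over -3.06 to -1.43 in CONTROL and from -3.42 over -2.24 to -1.70 in LOF embryos, of which 14 of 16 lay above the CONTROL median. The means differed by 0.52 (permutation test within batches, p = 0.0514, adjusted 0.251), and by 0.49 in batch 1 and 0.53 in batch 2. The log2 ratio of Slc2a1 to Slc2a3 was higher by 1.06 in TBP LOF embryos, 7 of 9 lying above the CONTROL median (exact permutation test, p = 0.0836, adjusted 0.251), and differed by 0.070 in FOXJ3 embryos, with -0.58 in batch 1 and 0.93 in batch 2. Hk1 to Hk2 differed by 0.23 and 0.15. None of the 6 ratios passed after adjustment.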

How the data were processed

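Members and gene lists were chosen with earlier results of these data known. Single late 2-cell embryos were sequenced with Smart-seq+5' and only reads of transcript 5' ends were used. The authors checked reads with FASTQC, trimmed them with Trimmomatic, mapped them with STAR (2.7.11a in the submitters' processing notes) to GRCm38 with the mCherry-Trim21 construct added and the endogenous Trim21 masked, kept the second read and counted with TEcount on gencode M20. The deposited values are expected counts (estimated counts), made by the authors per gene, ERCC transcript and transposable element family without normalization. All were whole numbers. For strand and for reads of several loci the counting mode is not stated. Reads carry no molecular identifiers, so that intervals from counts alone would understate the noise.

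The tables held 54838 genes, and 54723 identifiers had a symbol in gencode M21 of GRCm38. Groups follow the sample labels, although the Methods give TBP group sizes the other way round. Embryos with at least 500000 reads, 1000 genes, at most 10% mitochondrial and 15% ERCC reads were kept (47 of 49). Features counted in 25% or more of the embryos (1 read or more) were tested two-sided with edgeR 4.0.16 (quasi-likelihood test) and Benjamini-Hochberg adjustment over genes and transposable element families. TBP embryos were scaled by the median of ratios over 42 ERCC transcripts, FOXJ3 embryos by TMM with batch as a covariate, and the joint fit by 41 ERCC transcripts. Standard errors come from the F statistic. Ratios used raw counts plus a pseudocount of 0.5 and permutation tests, exact for TBP and with 100000 resamples within batches for FOXJ3. All 10 members are described. Of the other pathway genes, those with the smallest p per direction and list (TBP) and the 3 with the smallest p (FOXJ3) are named by rule, and others (Emb, Mpc1, Pgd, Pgls, Tkt) after their values were seen. Aldoa matched 2 rows and was left out. Scripts were tested on simulated data. Software was matplotlib 3.10.9, pandas 2.3.3, numpy 2.4.6 and Python 3.11.15, besides DESeq2 1.42.0 under R 4.3.3. Alternatives were other scalings, filters, DESeq2, all embryos, genes alone, no batch term, single batches, a replicate block and leaving out each embryo.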

Additional observations from a re-analysis of the deposited data

Results flagged for a closer look

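In 58 tests for an embryo far from the rest of its group, 5 values stood apart. Chance flags about 1 in 20 groups if values are normally distributed, which was not checked for these counts and ratios. TBP LOF embryo 5 had 12.2 ERCC-normalised counts of Hk2 (next 5.86), TBP LOF embryo 1 had 6.89 of Pgk2 (next 3.28), TBP LOF embryo 10 had 15.6 of Ldhc (next 6.35) and TBP CONTROL embryo 4 had 13.3 of Slc16a3 (next 6.74). TBP CONTROL embryo 6 had a log2 ratio of Ldha to Ldhb of -5.85 (next -2.95). Groups of more than 10 embryos were not examined in this way.

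The TBP and FOXJ3 effects differed in the joint edgeR fit with ERCC scaling by -1.36 for Slc16a1, -1.10 for Pgk1 and -1.12 for Pdha1 on the log2 scale, and for none of these 3 under TMM.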

How the results depend on the processing

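All values here are log2 fold changes or counts of genes, and the cause of each change was not tested beyond what a scaling does by construction. TBP under TMM: 0 members lower and 2 higher, 13 other pathway genes lower and 7 higher, Slc2a3 0.35, Slc16a1 0.0016, Hk1 0.67, Hk2 0.32, Pfkp 0.065, Ldha 0.17, Ldhb 0.67, Pdha1 0.014 and Slc2a8 0.21. Of all genes, 12.9% were lower and 13.2% higher there. TBP under DESeq2 size factors: 0 and 2 members, 13 and 7 pathway genes, Slc2a3 0.39, Slc16a1 0.05, Hk1 0.71, Hk2 0.32, Pfkp 0.10, Ldha 0.22, Ldhb 0.71, Pdha1 0.04 and Slc2a8 0.23. Of all 18447 genes, 2375 were lower and 2550 higher there. TBP scaled to all counted reads: 0 members lower, 18 pathway genes lower and 5 higher, Slc2a3 0.12, Hk1 0.38, Hk2 0.10 and Ldhb 0.42. Of all 18447 genes, 3086 were lower and 1404 higher there. The stricter filter filterByExpr left 1 pathway gene higher, beside 1.60% of all genes, and gave no value for Hk1, Hk2 and Pfkp. With all labelled embryos Pfkfb1 was at -0.04. Leaving out 1 TBP embryo gave 0 to 3 members lower, 1 to 3 pathway genes higher, Hk1 from -0.74 to 0.05 and Pfkfb1 from -0.58 to 0.46. In the main fit 29.8% of all genes were lower and 1.4% higher.

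For FOXJ3 the genes called over the whole table numbered 2, and 4 with DESeq2, 4 with no filter on low counts, 1 with filterByExpr, 3 with no batch term, 0 in either batch alone and 1 to 4 with 1 embryo left out. ERCC scaling gave Slc2a3 0.11, Pgk1 0.16 and Ldha 0.035. Batch 1 alone gave Slc2a3 0.22, Slc16a1 -0.19, Hk1 0.014 and Pdha1 -0.15, and batch 2 alone Slc2a1 0.57, Hk2 0.075, Pgk1 0.0034 and Ldha 0.22. Leaving out 1 embryo gave Ldha -0.35 to 0.13, Pdha1 -0.022 to 0.18, Pgk1 -0.12 to 0.026, Slc2a1 -0.35 to 0.25 and Slc2a3 -0.15 to 0.051. The joint fit under TMM had 0 members lower and 1 higher, 8 pathway genes lower and 4 higher, Slc2a3 0.49, Hk1 1.00, Hk2 0.98, Pfkp 0.61 and Ldha 0.38. Of all genes, 10.9% were lower and 10.5% higher there. Ratios reversed for Slc2a1/Slc2a3 (-0.58) in batch 1 and Hk1/Hk2 (-0.79) in batch 2 of FOXJ3, and ranged with 1 embryo left out from -0.17 to 0.30 and from -0.20 to 0.54, and from -0.13 to 0.58 for Hk1/Hk2 in TBP.

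Deviations of same-numbered LOF and CONTROL embryos had correlations from -0.073 to 0.14 in 7 TBP pairs and from -0.24 to 0.25 in 12 FOXJ3 pairs. Most like the embryo of their own number were 3 of 14 and 7 of 24 embryos. So few pairs cannot decide whether embryos of 1 number were collected together. A replicate block, fitted on the 14 TBP and 24 FOXJ3 embryos with a partner and so with fewer embryos, left 1 member lower for TBP (4493 genes lower and 277 higher over the table) and 0 genes for FOXJ3, with Slc2a1 at 0.24, Slc2a3 at 0.022 and Pgk1 at 0.016. The part of the block and that of the embryos left out cannot be told apart.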
